A study of Mus musculus with 12 samples.

Results

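The 6 retina libraries of mice with oxygen-induced retinopathy (OIR) were compared among themselves, replicates 1 to 3 against replicates 4 to 6, out of 12 libraries in the series. The labels give no difference between these replicate sets: all 6 are whole retina of C57BL/6 mice at postnatal day 17, labelled with 75% oxygen. The other 6 libraries are age-matched retinas of the same strain from normoxic air, numbered 1 to 6 as well. Neither group carries a transgene or a drug in the labels. The replicate sets were chosen by measured levels: earlier results had shown that Edn2 and Gfap parted between OIR replicates 1 to 3 and 4 to 6 and that the normoxic libraries parted along the same numbers. Differences between the sets, and between the responses within them, are therefore a description and carry no p-value. The gene lists were also chosen with earlier results of these data known, so shares of their members called are a description too. OIR against normoxic was tested with edgeR, over both sets for the genes called between them. The questions were which genes differed in level within the OIR group, for gliosis, vessel sprouting and inflammation in particular, and which stayed constant.

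High oxygen prunes capillaries from the central retina of young mice, and back in room air the tissue left without vessels turns hypoxic and forms new ones, some of them as abnormal tufts. Müller glia, which span the retina, and astrocytes of the nerve fibre layer answer such injury with reactive gliosis, in which intermediate filaments and secreted acute-phase proteins are induced. Leukemia inhibitory factor, a cytokine of the interleukin-6 family, acts on the gp130 receptor and the transcription factor STAT3 and is known in retinal injury as a signal that raises Gfap in Müller glia and Fgf2 in photoreceptors. Edn2, the gene of endothelin 2, is known as an injury gene of photoreceptors. Vascular sprouting is driven by the hypoxia-induced growth factor gene Vegfa and led by endothelial tip cells.

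Total counts were 17361979 to 21594618 per library. Glul, which marks the Müller glia of the retina, was at 1043 to 1712 CPM (counts brought to the same library size with TMM factors) in the 12 libraries. Across 19355 tested genes, the median biological coefficient of variation was 9.33%. Correlations of log2 levels were 0.992 to 0.993 within OIR 1 to 3, 0.991 to 0.993 within OIR 4 to 6 and 0.990 to 0.993 between the sets. OIR replicate 6 stood apart from the other 5 OIR libraries on the high side in 295 tested genes and on the low side in 122, against 57 to 147 and 27 to 65 for each of the other libraries. Values without it are given for some genes and lists. The labels do not say that libraries came from separate animals, so the p-values rest on a spread between libraries that may be technical. In whole retina, fewer cells of a type and less RNA per cell cannot be told apart.

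A gene was called different between the OIR sets when the 3 and the 3 libraries did not overlap and the fitted difference was at least 1.5-fold. By this rule 357 genes were higher in OIR 1 to 3, which is 1.84% of the tested genes, and 226 genes were lower, which is 1.17%. Non-overlap alone was met by 1850 genes on the higher side and 1808 on the lower. Leaving out any 1 OIR library eased the rule of non-overlap and gave 567 to 727 higher and 409 to 484 lower genes. Most called genes were scarce: 253 of the 357 and 192 of the 226 had a mean below 50 counts per OIR library, and 67 and 34 had a proper gene name and a mean FPKM of at least 1 in an OIR set. A scarce gene can pass the count filter only through the set where it is high. Its call then follows in part from the filter. Just inside the limit on the higher side were Fhl3 and Cd44 at 1.5-fold, and just outside it Pigl and Tead3 at 1.49-fold. On the lower side Dipk1c and Rgr lay just inside, with Zfas1 and Cpxm2 just outside.

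The called genes can be set beside the response to OIR, which the split did not use. Over all 12 libraries, 3847 genes rose in OIR (19.9% of those tested) and 3598 fell (18.6%; edgeR quasi-likelihood test, Benjamini-Hochberg adjusted p of 0.05). Of the 357 genes higher in OIR 1 to 3, 118 rose in OIR (33.1%), 23 fell (6.44%) and 216 did not pass. Of the 226 lower genes, 16 rose, 34 fell (15%) and 176 did not pass. The OIR levels enter both contrasts, so these shares are a description. Among the 1318 genes that passed with at least a 2-fold difference, 97 were higher in OIR 1 to 3 (7.36%) and 24 lower (1.82%). A further 289 were constant (21.9%), meaning that the 95% interval of the difference between the OIR sets lay within 1.5-fold in both directions, and 908 were neither. Of the constant genes 276 were higher and 13 lower in OIR than in normoxia. An interval is narrow only where counts are ample, so shares of constant genes depend on level too. Over all tested genes, whatever their response, 62.8% had an interval within 1.5-fold.

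Genes of reactive gliosis were among those that parted. Of 22 genes on the gliosis list, all of which rose in OIR, 7 were called higher in OIR 1 to 3 and none lower: Lcn2, Timp1, Serpina3n, Fgf2, Cebpd, Gfap and Cd44. That is 31.8% of the list, beside 1.84% of all tested genes. Without Gfap, on whose level the split was chosen, 6 of 21 were called. The list was chosen with earlier results known, so leaving out Gfap does not make this share independent of the split. The median difference of the list was 0.43 (log2), and 0.41 without Gfap, beside -0.0065 over all tested genes. Lcn2 encodes lipocalin 2, a secreted siderophore-binding protein of reactive glia (chromosome 2, 32274645 to 32278264, build GRCm39). It was at 42.9, 31.7 and 31 CPM in OIR 1 to 3 and 12.8, 14.9 and 13.1 CPM in OIR 4 to 6, and at 3.47 to 5.43 CPM in normoxia. All libraries of OIR 1 to 3 lay above all of OIR 4 to 6 by a wide gap, with a mean difference of 2.58-fold (log2 difference 1.37 ± 0.14 SE, n = 3 and 3). Against its own normoxic set, Lcn2 rose 7.63-fold in replicates 1 to 3 and 2.98-fold in replicates 4 to 6, and over both sets the rise passed with an edgeR adjusted p = 1.8e-13.

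Gfap, the intermediate filament gene of astrocytes and of stressed Müller glia (chromosome 11, 102778162 to 102791738, GRCm39), was at 312, 288 and 224 CPM in OIR 1 to 3 and 180.1, 192 and 150.0 CPM in OIR 4 to 6. The lowest value of the first set stood above the highest of the second, with OIR replicate 6 lowest. The difference was 1.58-fold (log2 difference 0.66 ± 0.12 SE, n = 3 and 3), and normoxic levels were 11.2 to 20.1 and 16.9 to 19.1 CPM in the corresponding sets. Without OIR replicate 6 it was 1.48-fold, and without OIR replicate 1 it was also 1.48-fold, both just below the limit. Gfap rose 18.6-fold in replicates 1 to 3 and 9.59-fold in replicates 4 to 6 (edgeR adjusted p = 4.7e-18 over both sets). Serpina3n, a secreted serine protease inhibitor of reactive astrocytes (chromosome 12, 104372988 to 104380588, GRCm39), was at 128, 99.3 and 81.4 CPM in OIR 1 to 3 and 52.8, 53.7 and 38.1 CPM in OIR 4 to 6, from 1.68 to 3.09 CPM in normoxia. The sets did not overlap and differed 2.13-fold (log2 difference 1.09 ± 0.13 SE, n = 3 and 3). Its rise was 50.3-fold in replicates 1 to 3 and 20.2-fold in replicates 4 to 6 (edgeR adjusted p = 6.0e-18 over both sets).

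**Figure D1:**
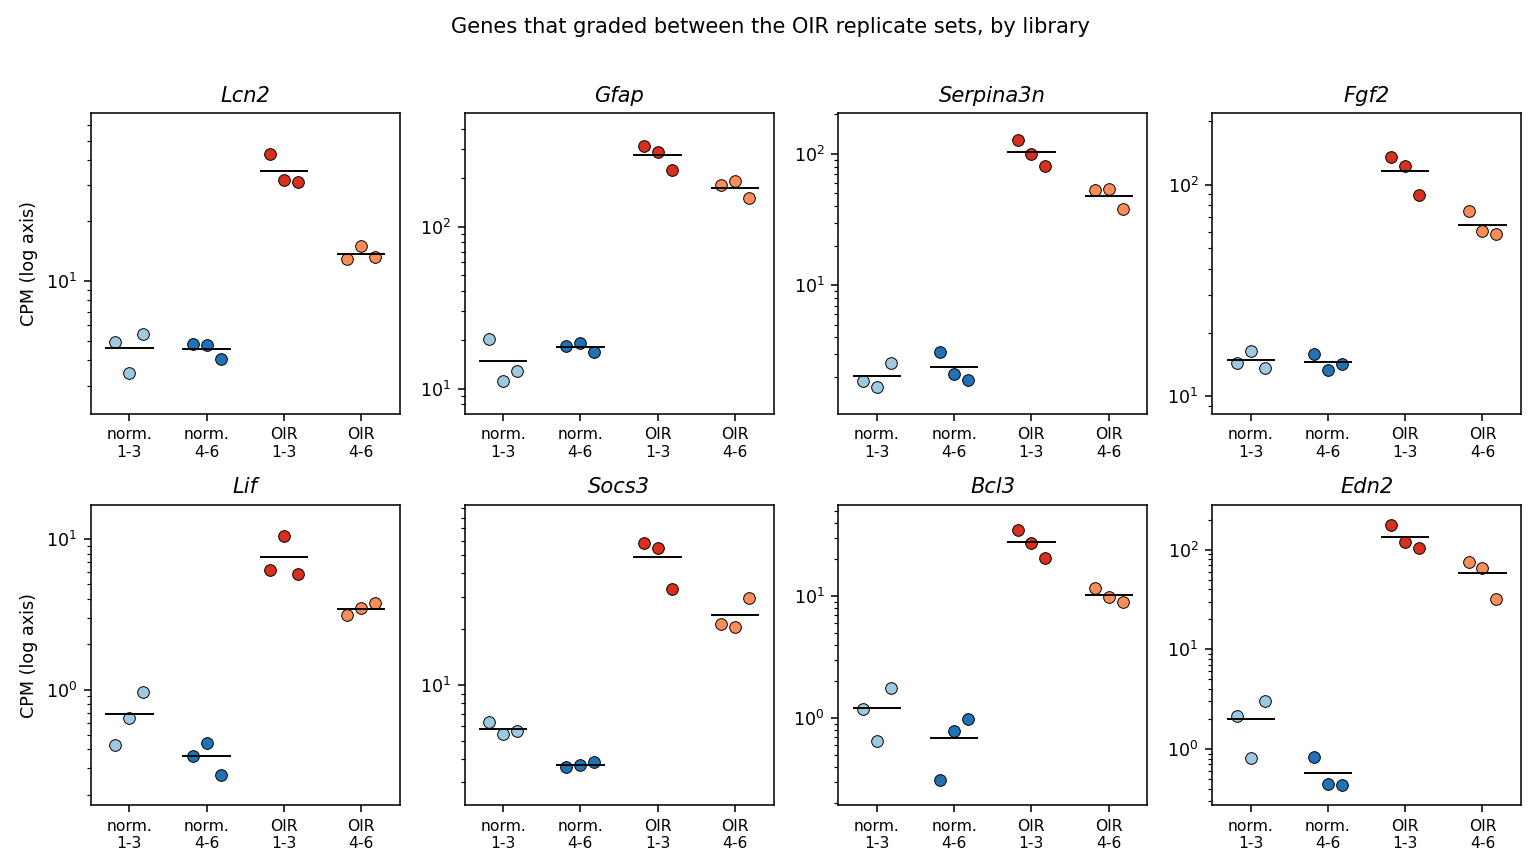
CPM on a log axis of 8 genes called higher in OIR replicates 1 to 3, with 1 point per library and a line at the mean of each set of 3. In each panel the 3 libraries of OIR 1 to 3 lie above the 3 of OIR 4 to 6, and both lie above all normoxic libraries.

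Timp1, a secreted inhibitor of matrix metalloproteinases, was at 8, 9.86 and 5.66 CPM in OIR 1 to 3 and 3.86, 3.88 and 2.66 CPM in OIR 4 to 6, a difference of 2.25-fold (log2 difference 1.17 ± 0.31 SE, n = 3 and 3). Fgf2, a growth factor of stressed photoreceptors and glia (chromosome 3, 37402495 to 37464257, GRCm39), was at 136, 122 and 89.6 CPM in OIR 1 to 3 and 75.2, 60.1 and 58.5 CPM in OIR 4 to 6. The first set lay wholly above the second, by 1.79-fold (log2 difference 0.84 ± 0.11 SE, n = 3 and 3), while the normoxic sets lay close together (log2 difference 0.034). Cebpd, an acute-phase transcription factor gene, was at 241, 203 and 141 CPM in OIR 1 to 3 and 99.6, 102 and 139 CPM in OIR 4 to 6. Here OIR replicate 6 was the highest of its set and replicate 3 the lowest of the other, only just apart, with a difference of 1.72-fold (log2 difference 0.78 ± 0.13 SE, n = 3 and 3). Cd44, the hyaluronan receptor of Müller glia, passed at 0.59 ± 0.10 (log2, SE), close to the limit.

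Other gliosis genes did not part. Vim, the intermediate filament of resting and reactive Müller glia, was at 675, 641 and 565 CPM in OIR 1 to 3 and 617, 659 and 507 CPM in OIR 4 to 6. These ranges overlapped, the difference was 1.06-fold with a 95% interval of 0.950 to 1.17, and Vim still rose 2.68-fold in OIR over both sets (edgeR adjusted p = 1.3e-15). The filament gene Nes, the galectin gene Lgals1 and the annexin gene Anxa2 were constant too, at 0.21, -0.12 and 0.083 (log2). A2m, a protease inhibitor gene of reactive glia, differed by 0.67 but overlapped, at 47.6 to 68.5 and 30.7 to 48.4 CPM. The oncostatin M receptor gene Osmr, at 19.3 to 28.6 and 13.8 to 22.3 CPM, overlapped as well (log2 difference 0.31 ± 0.17 SE). Of 9 astrocyte genes, Gfap alone was called (11.1%, beside 1.84% of all tested genes), and the split was chosen on its level. Pdgfra, the receptor of the astrocyte template, and Gja1, the gap junction protein connexin 43, were constant at 0.0094 and 0.16 (log2).

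The interleukin-6 family ligands, receptors and STAT3 targets formed the next group. Of 18 tested genes, 4 were called higher in OIR 1 to 3 (22.2%, beside 1.84% of all tested genes): Bcl3, Lif, Socs3 and Cebpd. None was called lower. Of the 10 with at least a 2-fold response, 1 (Junb) was constant (10%, beside 21.9% of all such genes). Whatever their response, 38.9% of the list had an interval within 1.5-fold, beside 62.8% of all tested genes. The list median was 0.37 (log2), from 0.22 without OIR replicate 2 to 0.50 without replicate 3. Lif, the ligand gene (chromosome 11, 4207557 to 4222514, GRCm39), was at 6.26, 10.6 and 5.85 CPM in OIR 1 to 3 and 3.12, 3.48 and 3.74 CPM in OIR 4 to 6. OIR replicate 2 was far the highest, and the sets did not overlap, with a difference of 2.19-fold (log2 difference 1.13 ± 0.25 SE, n = 3 and 3). Socs3, the feedback inhibitor induced by STAT3 (chromosome 11, 117856905 to 117860873, GRCm39), was at 58.6, 54.7 and 33.2 CPM in OIR 1 to 3 and 21.5, 20.6 and 29.7 CPM in OIR 4 to 6. The nearest libraries, replicate 3 and replicate 6, were close to each other, and the set difference was 2.04-fold (log2 difference 1.03 ± 0.15 SE, n = 3 and 3). Bcl3, an atypical inhibitor protein of the NF-kappa B family that responds to cytokines (chromosome 7, 19542387 to 19556695, GRCm39), was at 34.9, 27.4 and 20.3 CPM in OIR 1 to 3 and 11.7, 9.73 and 9 CPM in OIR 4 to 6, from 0.309 to 1.77 CPM in normoxia. Its difference of 2.70-fold (log2 difference 1.44 ± 0.20 SE, n = 3 and 3) was the largest of the 3 genes, and it rose 22.9-fold and 14.7-fold within the respective sets (edgeR adjusted p = 7.1e-14 over both sets).

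The receptor and the transcription factor of this pathway moved less. Stat3 was at 218, 225 and 162 CPM in OIR 1 to 3 and 138, 147 and 149 CPM in OIR 4 to 6, without overlap but under the limit, at 1.39-fold (log2 difference 0.48 ± 0.083 SE, n = 3 and 3). Il6st, which encodes gp130, did not overlap either and differed by 0.32 (log2). Lifr, Cntfr, Jak1 and Cish overlapped, with differences of 0.084, -0.065, -0.049 and 0.039 (log2). Socs3 was also called higher in normoxic replicates 1 to 3, at 5.48 to 6.32 against 3.6 to 3.87 CPM (log2 difference 0.64), so its rise within the sets was 8.35-fold and 6.39-fold. In normoxia Bcl3 and Lif overlapped between the sets at a low level, with differences of 0.80 and 0.91 (log2). For comparison, 960 genes were called higher in normoxic 1 to 3 (4.96% of those tested) and 607 lower (3.14%).

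Promoters of 4 of these genes are shown because they moved together and because matches to the STAT and kappa B motifs were found in them. Each runs from 200 bases before to 20 bases after the transcription start, 5′ to 3′ on the gene's strand, from RefSeq for build GRCm38.p6, all on the minus strand. The stretch just after the RefSeq start of Socs3, unlike the other 3, was not found in the GENCODE transcripts of the gene, so its positions count from a start that is RefSeq's alone. Capitals mark the matches. Gfap lies at chr11:102897181-102897400, Socs3 at chr11:117969347-117969566, Bcl3 at chr7:19822736-19822955 and Lcn2 at chr2:32387720-32387939.
Gfap: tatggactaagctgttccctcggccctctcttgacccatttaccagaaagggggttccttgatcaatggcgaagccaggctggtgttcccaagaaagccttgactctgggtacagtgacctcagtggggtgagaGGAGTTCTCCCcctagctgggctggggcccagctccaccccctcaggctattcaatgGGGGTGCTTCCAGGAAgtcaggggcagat
Socs3: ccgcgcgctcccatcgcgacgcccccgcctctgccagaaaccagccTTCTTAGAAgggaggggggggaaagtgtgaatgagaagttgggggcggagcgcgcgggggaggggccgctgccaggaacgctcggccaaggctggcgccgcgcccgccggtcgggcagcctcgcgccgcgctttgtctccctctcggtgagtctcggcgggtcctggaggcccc
Bcl3: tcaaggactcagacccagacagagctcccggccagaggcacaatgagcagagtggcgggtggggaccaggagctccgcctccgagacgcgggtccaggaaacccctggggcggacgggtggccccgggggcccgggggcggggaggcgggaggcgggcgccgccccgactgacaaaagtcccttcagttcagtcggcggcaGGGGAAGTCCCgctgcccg
Lcn2: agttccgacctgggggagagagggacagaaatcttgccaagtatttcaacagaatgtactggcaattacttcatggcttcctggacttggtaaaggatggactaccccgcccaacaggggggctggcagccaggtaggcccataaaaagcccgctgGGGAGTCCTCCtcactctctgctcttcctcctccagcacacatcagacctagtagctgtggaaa
The STAT motif TTCNNNGAA, which reads the same on both strands, was found in Gfap, where it begins at position -2 (1 is the first transcribed base), and in Socs3, at position -154. A match to the kappa B consensus begins at position -66 and another at -9 in Gfap, the latter overlapping the STAT match, at position 2 in Bcl3 and at position -44 in Lcn2.

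Windows of 300 bases, from 250 before to 50 after the start, were searched on both strands for 4 motifs. Of the 357 genes called higher, 169 matched a RefSeq symbol, with 199 windows. The STAT motif was in 6.53% of these windows, in 6.79% of the windows of tested genes and in 8.30% of all 32851 windows. The kappa B consensus was in 17.1%, beside 10.4% of tested genes' windows, 8.36% of all windows and 15.4% of 266 windows of constant genes. The hypoxia core ACGTG was in 24.6%, beside 23.9% and 19.6%, and the AP-1 motif TGANTCA in 8.54%, beside 5.29% and 7.81%. Among the 20 named genes called higher, 14 had a window. Of these, 8 held the kappa B consensus (Bcl3, Gfap, Lcn2, Lgals3, Lif, Npas4, Serpina3n and Tlr2), 2 the STAT motif (Gfap, Socs3), 2 the hypoxia core (Gadd45b, Timp1) and 1 the AP-1 motif (Lif). The kappa B share was thus 57.1% of the 14. Named genes were picked partly through lists chosen with earlier results known, so this share describes them alone. The Edn2 window held none of the 4. A match is a description of letters and not a bound site.

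Stress genes of photoreceptors and injured retina had a list median of 0.66 (log2). Of 11 tested genes, 6 were called higher in OIR 1 to 3 (54.5%, beside 1.84% of all tested genes): Bcl3, Edn2, Lif, Fgf2, Cebpd and Gfap. Without Edn2 and Gfap, on whose levels the split was chosen, the median was 0.48 and 4 of 9 were called. This list too was chosen with earlier results known, so these values are not independent of the split. All 11 rose in OIR. The list shares genes with the 2 groups above. Edn2 (chromosome 4, 120018403 to 120024557, GRCm39) was at 176, 119 and 104 CPM in OIR 1 to 3 and 75.8, 65.7 and 32.2 CPM in OIR 4 to 6, with OIR replicate 1 highest and replicate 6 lowest. The sets did not overlap and differed 2.30-fold (log2 difference 1.20 ± 0.21 SE, n = 3 and 3). In normoxia Edn2 had few counts, with 0.814 to 3.03 and 0.436 to 0.824 CPM in the respective sets. Its rise was 67.0-fold within replicates 1 to 3 and 99.8-fold within replicates 4 to 6 (edgeR adjusted p = 3.2e-15 over both sets), the reverse order of the levels. Edn2 was one of the earlier results behind the split. No other gene of the 6 tested in the endothelin pathway was called, where 3.01% of all tested genes were. The receptor gene Ednrb, which glia express, was at 7.83 to 11.5 and 7.30 to 10.2 CPM, Ednra differed by -0.29 and the ligand gene Edn1 by 0.27 (log2). The metallothionein gene Mt1 was constant (0.25), and the stress transcription factor gene Atf3 overlapped at 14.2 to 27.5 and 13.7 to 17.1 CPM.

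Gadd45b, a stress and growth arrest gene, was at 45.9, 36.5 and 30.5 CPM in OIR 1 to 3 and 20.4, 17.0 and 17.3 CPM in OIR 4 to 6. Its sets were well apart, by 2.06-fold (log2 difference 1.04 ± 0.14 SE, n = 3 and 3), against 0.27 in normoxia (log2). The p53 target genes Cdkn1a and Phlda3, from the same list of 13, were constant at -0.073 and 0.05 (log2). Slc7a11, the cystine transporter gene of the oxidative stress list, was called higher (0.73 ± 0.24, log2, SE). Hmox1, the heme oxygenase gene, was at 80.7, 69.4 and 66.5 CPM in OIR 1 to 3 and 53.5, 58.4 and 29.8 CPM in OIR 4 to 6. OIR replicate 6 was by far the lowest, and the difference of 1.53-fold (log2 difference 0.61 ± 0.16 SE, n = 3 and 3) fell to 1.29-fold without it.

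Inflammatory genes parted in part. Of 22 tested cytokine and chemokine genes, 3 were called higher in OIR 1 to 3 (13.6%, beside 1.84% of all tested genes): Ccl4, Tlr2 and Lgals3. None was called lower, and the list median was 0.39 (log2). This median turned to -0.026 when only genes with a mean FPKM of at least 2 were kept, and was 0.13 without OIR replicate 6. Ccl4, a chemokine of activated microglia, had 0.783, 0.631 and 0.737 CPM in OIR 1 to 3 and 0.159, 0.348 and 0.283 CPM in OIR 4 to 6, values that rest on few counts. The first set was above the second by 2.70-fold (log2 difference 1.43 ± 0.59 SE, n = 3 and 3). Normoxic libraries had at most 0.164 CPM. Ccl4 passed the count filter only through OIR 1 to 3, so its call follows in part from the filter. The share of 13.6% includes it. Tlr2, the bacterial lipopeptide receptor, was at 3.13, 4.07 and 3.04 CPM in OIR 1 to 3 and 1.48, 2.55 and 2.09 CPM in OIR 4 to 6, with a gap of 1.67-fold (log2 difference 0.74 ± 0.31 SE, n = 3 and 3). Lgals3, galectin 3 of phagocytic cells, was at 18.1, 14.1 and 14.5 CPM in OIR 1 to 3 and 10.3, 9.27 and 11.2 CPM in OIR 4 to 6, all of the first set above the second by 1.52-fold (log2 difference 0.60 ± 0.16 SE, n = 3 and 3). Lgals3 dropped below 1.5-fold without OIR replicate 1 or 5 (1.40- and 1.45-fold) and Tlr2 without OIR replicate 4 (1.47-fold). The monocyte chemokine gene Ccl2, at 1.85, 2.81 and 1.93 CPM in OIR 1 to 3 and 2.12, 1.39 and 1.08 CPM in OIR 4 to 6, overlapped.

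In the complement list of 15 genes, every fitted difference was above 0 and the median was 0.22 (log2). C4b and Cfi were called higher (13.3%, beside 1.84% of all tested genes). C4b, the classical pathway component made by reactive glia (chromosome 17, 34947354 to 34962856, GRCm39), was at 60.2, 45.1 and 41.5 CPM in OIR 1 to 3 and 25.7, 24.0 and 26.6 CPM in OIR 4 to 6. It parted cleanly in OIR by 1.92-fold (log2 difference 0.94 ± 0.15 SE, n = 3 and 3) and in normoxia too, at 2.82 to 4.39 against 0.654 to 1.91 CPM. It rose 13.9-fold and 22.1-fold in the respective sets (edgeR adjusted p = 3.5e-16 over both sets). Cfi, complement factor I, was at 2.46, 2.98 and 3.13 CPM in OIR 1 to 3 and 1.64, 2.20 and 1.19 CPM in OIR 4 to 6, apart by 1.71-fold (log2 difference 0.77 ± 0.33 SE, n = 3 and 3). Without OIR replicate 6 it was 1.49-fold. C3, the central component, was at 9.45, 7.74 and 5.71 CPM in OIR 1 to 3 and 6.67, 4.92 and 4.30 CPM in OIR 4 to 6 and overlapped (log2 difference 0.52 ± 0.22 SE). C1qa, the microglial initiator of the classical pathway, was at 33.9, 34.2 and 36.5 CPM in OIR 1 to 3 and 33.5, 33.4 and 23.1 CPM in OIR 4 to 6. The other 5 values lay close together with replicate 6 below them, and C1qa was constant, as were C1qb and C1qc.

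Of 24 microglia and macrophage genes, 23 rose in OIR. Between the OIR sets 1 (Lyz2) was called higher (4.17%, beside 1.84% of all tested genes), 3 did not overlap (12.5%, beside 18.9%) and the median was 0.11 (log2), from 0.039 without OIR replicate 1 to 0.18 without replicate 2. Of the 17 with at least a 2-fold response, 7 were constant (41.2%, beside 21.9%). Whatever their response, 45.8% of the 24 had an interval within 1.5-fold, below the 62.8% of all tested genes. Lyz2, the lysozyme gene of macrophages, was at 32.7, 26.9 and 29.6 CPM in OIR 1 to 3 and 24.0, 22.2 and 12.8 CPM in OIR 4 to 6, and its difference of 1.51-fold (log2 difference 0.59 ± 0.17 SE, n = 3 and 3) was 1.29-fold without OIR replicate 6. Cx3cr1, the fractalkine receptor of microglia, was at 13.1, 12.0 and 12.9 CPM in OIR 1 to 3 and 13.1, 13.3 and 10.8 CPM in OIR 4 to 6. It was constant, with an interval of 0.833 to 1.26 fold, and rose 2.24-fold over both sets (edgeR adjusted p = 1.0e-08). Cd68, Trem2, Tyrobp, Laptm5 and Fcgr3 were among the other constant members. Aif1, the microglial marker Iba1, was at 1.84 to 3.31 and 1.19 to 3.42 CPM on few counts. P2ry12, a receptor of resting microglia, was lower in OIR 1 to 3 without overlap (-0.34, log2), under the limit. No interferon response gene of 19 was called between the OIR sets (median 0.14), and no antigen presentation gene of 12 (median 0.26). Of all tested genes 3.01% were called, so these counts say little. The interferon list summed to 322 to 337 CPM in OIR 1 to 3 and 346, 342 and 234 CPM in OIR 4 to 6. Antigen presentation sums were 436 to 467 CPM in OIR 1 to 3 and 450, 427 and 302 CPM in OIR 4 to 6. OIR replicate 6 was the lowest by far in both, so the medians do not describe OIR 4 to 6 as a set. Medians without replicate 6 are not given for these lists. In normoxic 1 to 3, 9 of the 19 interferon genes were called higher, beside 4.96% of all tested genes. Of the 7 antigen presentation genes with at least a 2-fold response, 4 were constant (57.1%, beside 21.9%). Whatever their response, 50% of the 12 had an interval within 1.5-fold, below the 62.8% of all tested genes.

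Of 21 tip cell and sprouting genes, 20 rose in OIR, 18 of them at least 2-fold, and of these 11 were constant between the OIR sets (61.1%, beside 21.9% of all such genes). Whatever their response, 66.7% of the 21 had an interval within 1.5-fold, close to the 62.8% of all tested genes. None was called, where 3.01% of all tested genes were, so this count says little about the list. The fitted difference was below 0 in 19 (90.5%, beside 51.3%), with a median of -0.20 (log2) that ran from -0.35 without OIR replicate 2 to -0.083 without replicate 5. Esm1, a secreted proteoglycan of tip cells (chromosome 13, 113346193 to 113354632, GRCm39), was at 8.78, 11.8 and 7.18 CPM in OIR 1 to 3 and 12.7, 12.5 and 9.68 CPM in OIR 4 to 6. The sets overlapped, and the ratio was 0.584 to 1.07 by its 95% interval. Angpt2, the ligand that destabilises vessels, was at 23.8, 33.9 and 24.8 CPM in OIR 1 to 3 and 28.9, 35.7 and 32.0 CPM in OIR 4 to 6 and was constant. Apln, the tip cell peptide apelin (chromosome X, 47114023 to 47123730, GRCm39), was at 83.8, 119 and 92.4 CPM in OIR 1 to 3 and 115, 119.8 and 120.2 CPM in OIR 4 to 6. Its OIR sets overlapped, with the ratio below 1 by its interval of 0.727 to 0.951, and its normoxic levels lay further apart, 3.48 to 3.80 against 7.93 to 11 CPM. It rose 26.8-fold in replicates 1 to 3 and 12.0-fold in replicates 4 to 6 (adjusted p of 4.4e-17 and 8.1e-16, edgeR). Adm, adrenomedullin, was at 24.6, 28.6 and 25.1 CPM in OIR 1 to 3 and 32.0, 32.8 and 31.7 CPM in OIR 4 to 6, all lower in OIR 1 to 3 but under the limit (log2 difference -0.30 ± 0.14 SE). The Notch ligand gene Dll4 differed by -0.29 and the chemokine receptor gene Cxcr4 by -0.44 (log2).

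**Figure D2:**
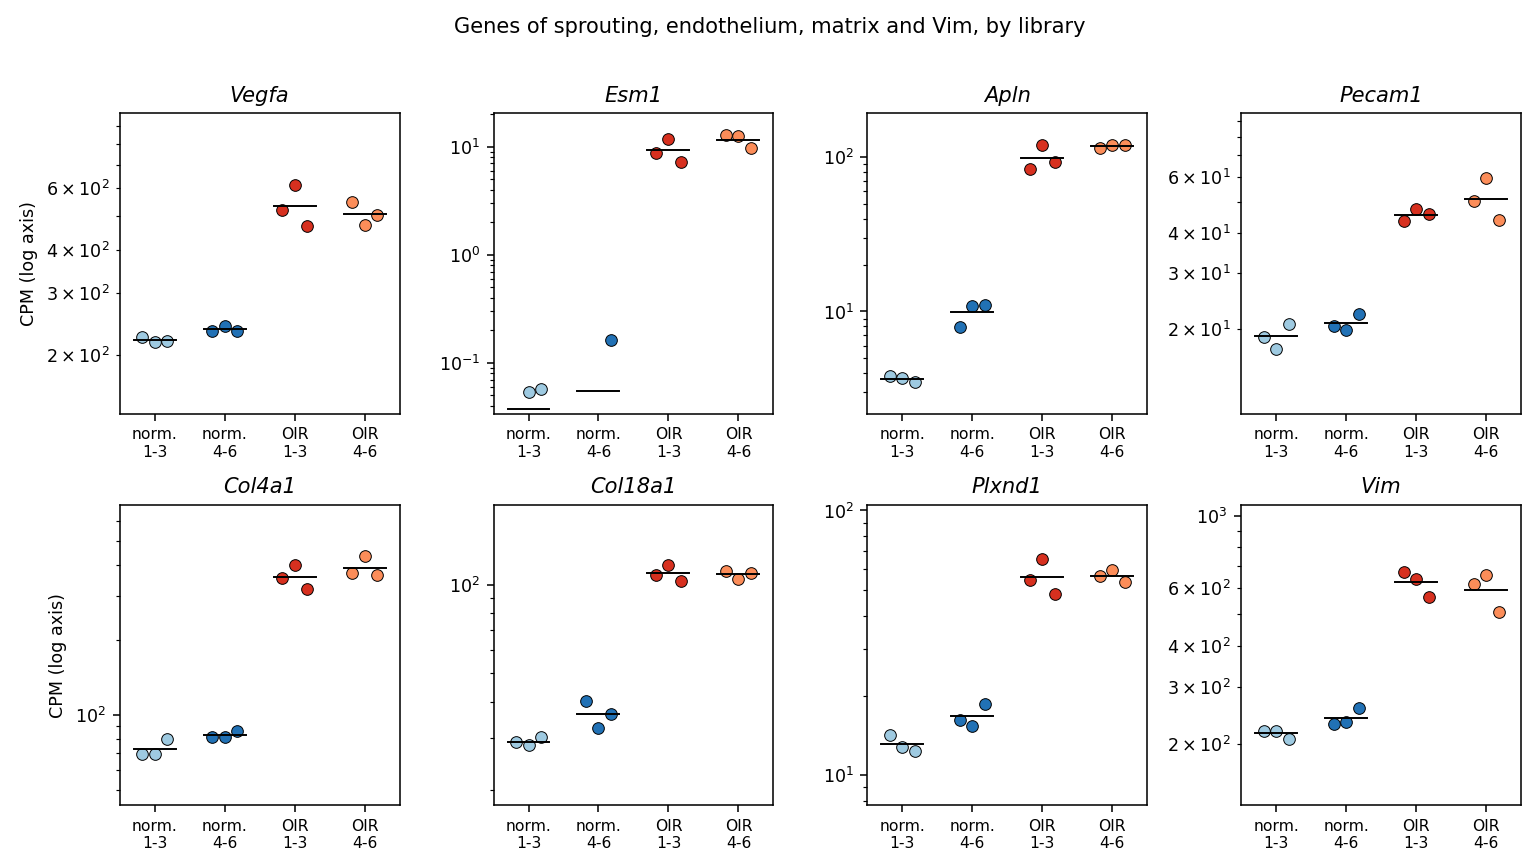
CPM on a log axis of 8 genes of sprouting, endothelium, matrix and glia, with 1 point per library and a line at the mean of each set of 3. The OIR sets overlap in every panel while all OIR libraries lie above all normoxic ones. Normoxic replicates 1, 4 and 5 had no Esm1 count and are not drawn.

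Of 20 endothelial genes, 10 of the 13 with at least a 2-fold response were constant (76.9%, beside 21.9%). Whatever their response, 85% of the 20 had an interval within 1.5-fold, beside 62.8% of all tested genes. The median was -0.16 (log2), from -0.29 without OIR replicate 6 to -0.073 without replicate 5. None was called, again beside 3.01% of all tested genes. Pecam1, an endothelial adhesion gene, was at 43.7, 47.4 and 45.8 CPM in OIR 1 to 3 and 50.3, 59.3 and 43.9 CPM in OIR 4 to 6, overlapping, and rose 2.43-fold over both sets (edgeR adjusted p = 6.2e-13). Among the constant members were Cdh5, the endothelial cadherin (-0.23), Tie1 (-0.26) and Vwf, the von Willebrand factor (-0.079, all log2). Of 12 pericyte and smooth muscle genes, all rose in OIR and none was called, beside the same 3.01%. Of the 9 with at least a 2-fold response, 5 were constant (55.6%, beside 21.9%), including Rgs5 (-0.25) and Des (0.037). Whatever their response, 66.7% of the 12 had an interval within 1.5-fold, close to the 62.8% of all tested genes. Plxnd1, the semaphorin receptor of sprouting endothelium, was at 54.8, 65.6 and 48.3 CPM in OIR 1 to 3 and 56.8, 59.6 and 53.5 CPM in OIR 4 to 6, with sets that matched closely (interval 0.869 to 1.13).

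Of 23 basement membrane and matrix genes, 15 of the 18 with at least a 2-fold response were constant (83.3%, beside 21.9% of all such genes). Whatever their response, 87% of the 23 had an interval within 1.5-fold, beside 62.8% of all tested genes. Timp1 alone was called (4.35%, beside 1.84% of all tested genes). Col4a1, the main collagen of vessel basement membranes, was at 354, 397 and 318 CPM in OIR 1 to 3 and 369.7, 435 and 363 CPM in OIR 4 to 6, and Col18a1, which carries endostatin, at 108, 117 and 103 CPM in OIR 1 to 3 and 111, 105 and 109.6 CPM in OIR 4 to 6. In both the sets overlapped, with intervals of 0.827 to 1.01 and 0.917 to 1.11, and the genes rose 4.80-fold and 3.35-fold (adjusted p of 6.5e-19 and 1.3e-17, edgeR). The laminin gene Lamc1, the collagen chaperone gene Serpinh1 and the membrane protease gene Mmp14 were among the 10 constant genes with the narrowest bounds. Pdlim3, an actin-associated gene, had the narrowest of all, at 80.3, 83.7 and 78.3 CPM in OIR 1 to 3 and 85.3, 79.7 and 76.7 CPM in OIR 4 to 6, with an interval of 0.920 to 1.09 and a rise of 2.53-fold. Igfbp5, Clic4, Tagln2 and Nr4a1 completed the 10, with rises of 2.53-, 2.21-, 6.80- and 2.04-fold over both sets (edgeR adjusted p = 1.2e-14, 6.2e-13, 2.3e-17 and 7.6e-11).

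Of 27 genes induced by hypoxia, 26 rose in OIR. Between the OIR sets 1 was called, Hmox1 on the higher side (3.7%, beside 1.84% of all tested genes), and 6 did not overlap (22.2%, beside 18.9%). The median was 0.06 (log2), from 0.018 without OIR replicate 2 to 0.13 without replicate 3. Of the 9 genes with at least a 2-fold response, 5 were constant (55.6%, beside 21.9%). Whatever their response, 81.5% of the 27 had an interval within 1.5-fold, beside 62.8% of all tested genes. Vegfa (chromosome 17, 46327919 to 46343295, GRCm39) was at 519, 613 and 469 CPM in OIR 1 to 3 and 547, 471 and 504 CPM in OIR 4 to 6. The sets overlapped, the interval was 0.954 to 1.16, and the rise was 2.42-fold and 2.14-fold within the respective sets (adjusted p of 2.3e-12 and 5.0e-11, edgeR). Egln3, an oxygen-sensing hydroxylase induced by hypoxia, and Bnip3, a mitophagy gene, were constant at 0.18 and -0.001 (log2). The carbonic anhydrase gene Car9 differed by 0.50 with overlap. No gene of 19 in glycolysis was called (median -0.033), and no gene of 17 in proliferation (median 0.011). Of all tested genes 3.01% were called, so these counts say little about either list. The proliferation marker gene Mki67 was at 5.48 to 6.37 and 2.21 to 6.04 CPM, lowest in OIR replicate 6.

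**Figure D3:**
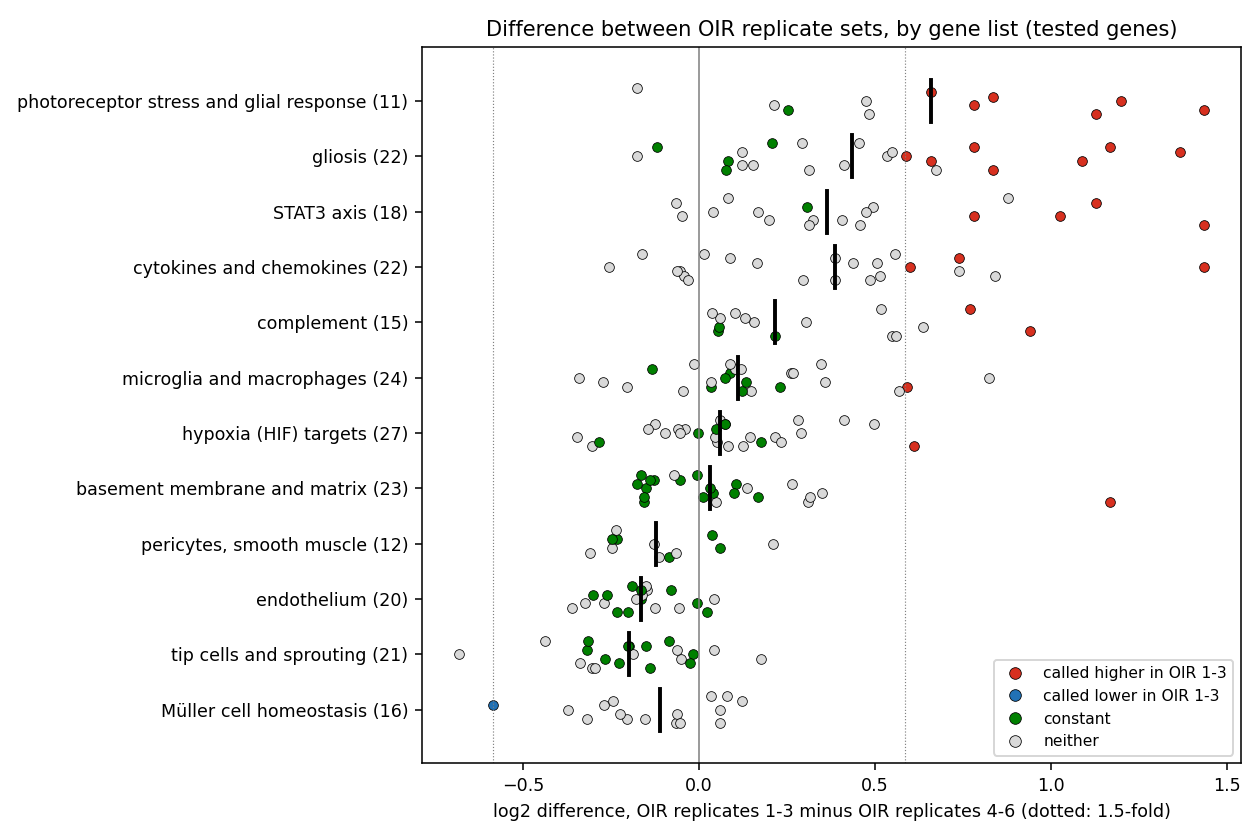
Log2 difference between OIR replicates 1 to 3 and OIR replicates 4 to 6 for every tested gene of 12 lists, with the number tested in brackets, 1 point per gene, the list median as a black bar and 1.5-fold as dotted lines. Points called higher make up 54.5%, 31.8% and 22.2% of the stress, gliosis and STAT3 lists, beside 1.84% of all tested genes. These lists share members and were chosen with earlier results known, and the split was chosen on Edn2 and Gfap. Sprouting, endothelium and pericyte lists hold no called gene, which says little where 3.01% of all tested genes were called. Their medians are -0.20, -0.16 and -0.12.

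Several lists lay on the lower side of OIR 1 to 3 by small differences, homeostatic genes of Müller glia among them. The share lower without overlap was 65% for ribosomal protein, 68.8% for nuclear oxidative phosphorylation and 33.3% for bipolar cell genes. Of 16 Müller glia genes, 7 were lower without overlap (43.8%, beside 9.34% of all tested genes) and none higher. The differences were small: the median was -0.11 (log2), 15 of the 16 had an interval within 1.5-fold, and Rgr alone reached the limit. Glul, the glutamine synthetase that clears glutamate, was at 1043, 1176 and 1276 CPM in OIR 1 to 3 and 1351, 1394 and 1613 CPM in OIR 4 to 6. Every library of the first set was below the second, with OIR replicate 6 highest, and the mean level was 0.802 of that in OIR 4 to 6 (log2 difference -0.32 ± 0.063 SE). In normoxia Glul also parted, in the other direction, at 1681 to 1712 against 1426 to 1542 CPM. Against these sets Glul was at 0.686 of the normoxic level in replicates 1 to 3 and at 0.978 of it in replicates 4 to 6. The difference between these responses was not tested. Over both sets Glul was at 0.819 of the normoxic level (edgeR adjusted p = 1.6e-05). Rlbp1, the retinaldehyde-binding protein, differed by -0.24, the carbonic anhydrase genes Car14 and Car2 by -0.37 and -0.27, and the lipoprotein gene Apoe by -0.20 (log2). The water channel gene Aqp4, the potassium channel gene Kcnj10 and the glutamate transporter gene Slc1a3 overlapped, at -0.062, 0.061 and 0.08.

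Rgr, a retinal G protein-coupled receptor of Müller glia and pigment epithelium, was at 18.4, 14.9 and 14.3 CPM in OIR 1 to 3 and 19.8, 23.9 and 27.7 CPM in OIR 4 to 6, 1.5-fold lower in OIR 1 to 3 (log2 difference -0.59 ± 0.13 SE). It lay at the limit, and leaving out any of OIR replicates 2, 3, 5 or 6 took it below. In normoxia it parted far more, 5.66 to 7.29 against 37.1 to 45.5 CPM. Of the 10 named genes with the lowest differences, Fabp7, the brain fatty acid-binding protein of glial progenitors, was at 4.64, 6.14 and 4.97 CPM in OIR 1 to 3 and 8.05, 9.73 and 11.9 CPM in OIR 4 to 6 and 1.88-fold lower in OIR 1 to 3 (log2 difference -0.91 ± 0.18 SE). Cltrn, collectrin, was at 4.98, 7.46 and 5.52 CPM in OIR 1 to 3 and 7.62, 10.3 and 18.8 CPM in OIR 4 to 6, where replicate 6 was the highest, and 2.05-fold lower in OIR 1 to 3 (log2 difference -1.03 ± 0.24 SE). Both also parted in normoxia, at 3.15 to 3.70 against 7.62 to 10.8 and 3.20 to 4.66 against 9.68 to 13.7 CPM. Casq2, calsequestrin 2, was at 1.79, 2.35 and 2.39 CPM in OIR 1 to 3 and 3.97, 4.46 and 4.70 CPM in OIR 4 to 6, but higher in normoxic 1 to 3, at 4.23 to 5.20 against 2.88 to 4.09 CPM. The prepronociceptin gene Pnoc, Serf1 and the lens crystallin gene Crybb1 were at 0.598 to 1.61, 0.615 to 0.921 and 0.336 to 0.598 CPM in OIR 1 to 3 and 1.75 to 2.90, 1.16 to 1.92 and 1.04 to 1.70 CPM in OIR 4 to 6. Fam183b, Mir1953 and the pseudogenes Rps15a-ps7 and Mrpl48-ps, like the hemoglobin pseudogene Hba-ps4 at the top of the higher side, were all below 2 CPM in each OIR library, and pseudogene reads may belong to the parent gene. Mir1953 passed the count filter only through OIR 4 to 6, at 0.582 to 0.811 CPM.

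The rod, cone, bipolar, amacrine, ganglion and horizontal cell lists held 89 tested genes, of which 21 were lower in OIR 1 to 3 without overlap (23.6%, beside 9.34% of all tested genes) and 3 higher (3.37%, beside 9.56%). Their medians ran from -0.25 (amacrine) to -0.073 (bipolar). None reached the limit without overlap, where 3.01% of all tested genes did. Small differences without overlap were frequent in 2 other lists. Of 20 ribosomal protein genes, 13 were lower in OIR 1 to 3 (65%, beside 9.34%), with a median of -0.14 (log2). Of 16 nuclear genes of oxidative phosphorylation, 11 were lower (68.8%), with a median of -0.15. Gene length moved with the contrast: the median difference was -0.056 among the 3871 shortest tested genes and 0.048 among the 3871 longest (log2), and its part in the results was not tested. Among immediate early genes Npas4, a neuronal activity gene, was called, at 8.17, 5.91 and 7.69 CPM in OIR 1 to 3 and 3.34, 3.65 and 4.36 CPM in OIR 4 to 6. Fos and Egr1 were lower in OIR 1 to 3 without overlap (-0.42 and -0.54, log2), under the limit, and were called higher in normoxic 1 to 3 (1.95 and 1.19).

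The normoxic sets did not overlap in 37.4% of tested genes, the OIR sets in 18.9%. Of the 357 genes higher in OIR 1 to 3, 41 were also called higher in normoxic 1 to 3 (11.5% of the OIR calls, beside 4.96% of all tested genes, and 4.27% of the normoxic calls) and 19 were called lower there (5.32%, beside 3.14%). Of the 226 lower genes, 24 were also lower in normoxia (10.6%, beside 3.14%, and 3.95% of the normoxic calls) and 18 higher (7.96%, beside 4.96%). Lcn2, Fgf2, Gfap and Serpina3n differed by 0.0091, 0.034, -0.29 and -0.23 between the normoxic sets (log2). Within replicates 1 to 3, 3635 genes rose and 3307 fell in OIR, and within replicates 4 to 6, 2384 rose and 1861 fell (edgeR, adjusted p of 0.05). The difference between these counts was not tested. Gliosis genes had a median response of 2.35 and 1.83 (log2) in the respective sets, stress genes 2.96 and 2.16, sprouting genes 2.34 and 1.88, endothelial genes 1.21 and 1.35, and hypoxia targets 0.74 and 0.88.

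**Figure D4:**
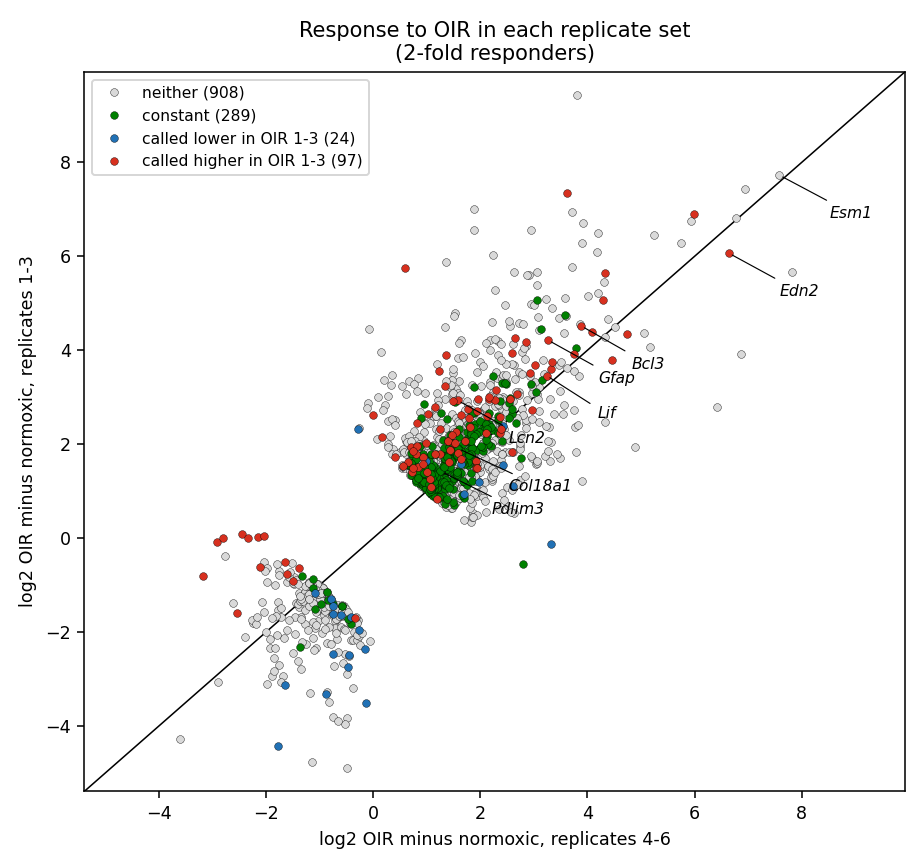
Log2 difference OIR minus normoxic within replicates 4 to 6 (horizontal) and within replicates 1 to 3 (vertical) for the 1318 genes that passed over both sets with at least 2-fold, coloured by the call between the OIR sets, with a line of equality. Lcn2 and Gfap lie above the line, whereas Edn2, although called higher in OIR 1 to 3, lies below it.

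Markers of tissues next to the retina are given here for their full lists. Summed over the 13 tested of 14 pigment epithelium genes, OIR 1 to 3 had 85.9 to 94.6 CPM and OIR 4 to 6 had 113 to 145 CPM, and the normoxic sets 34.0 to 36.8 and 173 to 194 CPM. Ttr, transthyretin of the pigment epithelium, was at 28.6, 24.1 and 22.3 CPM in OIR 1 to 3 and 36.9, 55.4 and 35.8 CPM in OIR 4 to 6, 1.71-fold lower in OIR 1 to 3 (log2 difference -0.77 ± 0.13 SE). The 4 tested of 8 red blood cell genes summed to 176 to 235 CPM in OIR 1 to 3 and 114 to 174 CPM in OIR 4 to 6, with 99.1 to 132 and 55.5 to 57.8 CPM in normoxia. The 15 tested of 18 lens genes summed to 7.51 to 13.6 CPM in OIR 1 to 3 and 11.2 to 28.8 CPM in OIR 4 to 6, an overlap. Of 12 genes of cornea, ciliary body and iris 3 were tested, and their sum was 54.8 to 67.8 CPM in OIR 1 to 3 and 41.0 to 52.1 CPM in OIR 4 to 6, without overlap, nearly all of it from Optc, the opticin gene. The corneal keratin genes Krt5, Krt12 and Krt14 did not pass the filter. Sums for muscle, optic nerve and blood leukocyte lists overlapped. Members not tested were too low to pass the filter or not listed in the table. Mitochondrial mRNA was 2.76% to 3.13% of counts in the first set and 3.04% to 3.13% in the second. The part of these in the glial and inflammatory differences was not tested. With the lens level as a covariate, Lcn2, Edn2, Bcl3 and Serpina3n were above 1.5-fold and Gfap was at the limit (log2 0.58). Hmox1 and Lyz2 were at 1.45- and 1.38-fold. The lens sums overlapped between the OIR sets. No fit adjusted for pigment epithelium or red blood cell genes, whose sums did not overlap, so the covariate does not test their part. Xist, of the inactive X chromosome, and the Y-linked gene Ddx3y were counted in every library and overlapped between the OIR sets, at 604 to 1345 and 627 to 694 CPM and 8.43 to 40.4 and 29.2 to 44.0 CPM.

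**Figure D5:**
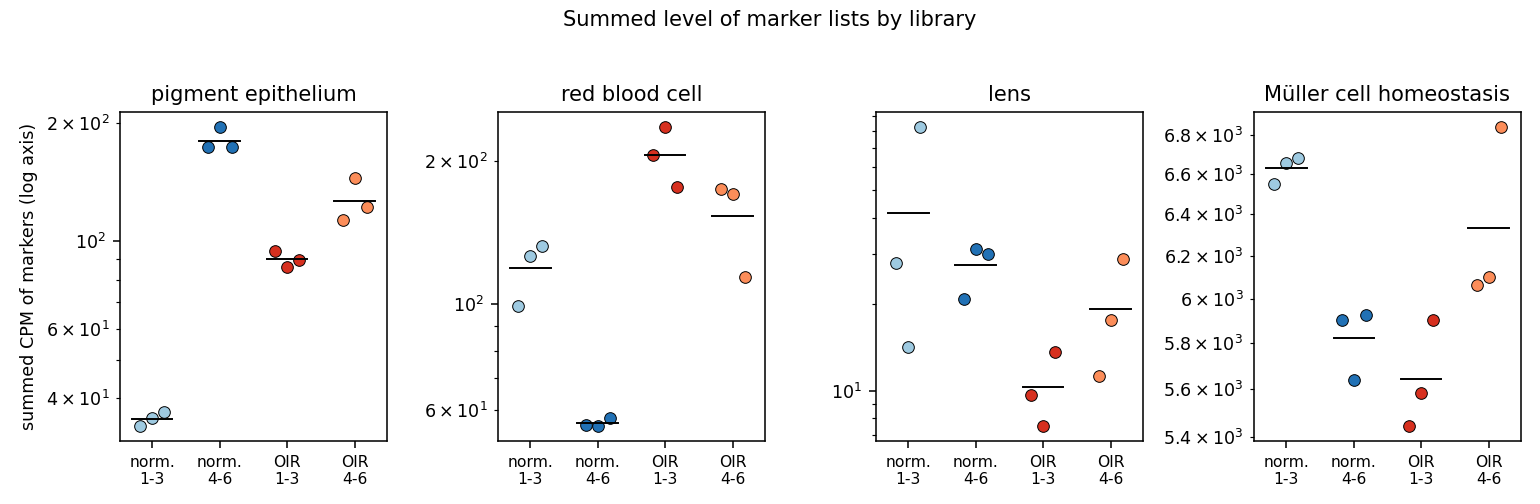
Summed CPM of 4 marker lists on a log axis, with 1 point per library and a line at the mean of each set of 3. In both groups pigment epithelium sums are lower and red blood cell sums higher in replicates 1 to 3, without overlap, though red blood cell sums only just part in OIR. Lens sums overlap in both groups. Müller cell homeostasis genes lie at 5445 to 5905 CPM in OIR 1 to 3 and 6066 to 6839 CPM in OIR 4 to 6.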

How the data were processed

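RNA of 12 mouse retina libraries, 6 per group, was sequenced after poly-A capture, per the labels. The authors deposited whole-number counts per gene beside FPKM (fragments scaled by gene length and library total) for 57073 gene models. The submitters' processing notes name Trimmomatic, HISAT2 (version 2.0.5) and HTSeq, and build GRCm39, without saying what each did. Not given in the sources used here are the annotation release and strand setting, so overlapping genes and pseudogenes cannot be kept apart with certainty. Total counts of 17361979 to 21594618 per library set the precision, and genes with few counts carry wide errors.

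Groups and replicate numbers come from the sample titles. Members of the comparison, gene lists and rules were chosen with earlier results of these data known. Counts were fitted with edgeR version 4.0.16 (R version 4.3.3) on 4 cells, group by replicate set: filterByExpr (minimum count 10, total 15), TMM scaling and quasi-likelihood tests with Benjamini-Hochberg adjustment over 19355 genes at 0.05. CPM are counts brought to the same library size with TMM factors. Fold changes between the OIR sets come from this fit with a 95% interval and no p-value. FPKM served only the naming rule and alternatives. Named genes needed a proper name, a mean FPKM of at least 1 in an OIR set and no overlap: the 10 highest and the 10 lowest differences. To these came the 3 largest called members of each main list and the 1 of other lists, the 10 constant genes with the narrowest interval, and genes named in any case. Other list members were named after their values were seen. Deviations from the mean of each set correlated at -0.024 to 0.039 between libraries of the same number. Whatever numbers 1 to 3 or 4 to 6 share across the groups is removed with these means and was not tested. Libraries of a set differed by more than counting noise (3.05 to 8.07 chi-square units per degree of freedom), and none was merged. The procedure was tested on simulated data. Alternatives used DESeq2 version 1.42.0, limma version 3.58.1 on log2(FPKM + 1) and log2(FPKM + 0.1), other scalings and filters, only the 6 OIR libraries, the lens level as a covariate, and each library left out. Promoter windows came from RefSeq's table for GRCm38.p6, matched by symbol. No coordinates were moved between builds.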

Additional observations from a re-analysis of the deposited data

Results flagged for a closer look

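For 61 named genes, each group of 6 libraries was searched for a library set apart from the other 5 by Dixon's criterion, which chance meets in about 1 in 20 groups. Of the 122 groups, 7 met it. In OIR, C1qa was at 23.1 CPM in replicate 6, below the others, and Xist at 1345 CPM in replicate 2, above them. In normoxia, Crybb1 was at 4.74 CPM in replicate 3, Tagln2 at 15.9 CPM in replicate 6 and Osmr at 6.69 CPM in replicate 4, each above the rest. Esm1 at 0.164 CPM in normoxic replicate 6 and Ccl2 at 0.114 CPM in normoxic replicate 3 stood above libraries with almost no counts. Casq2 parted in opposite directions: lower in OIR 1 to 3 (log2 difference -1.0) and higher in normoxic 1 to 3 (0.39), with no overlap in either group. The difference between these was not tested.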

How the results depend on the processing

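The 32 called named genes kept the sign of their difference between the OIR sets in 657 of 657 values from the alternatives. They were picked for sets without overlap, and the alternatives refit the same libraries. Kept signs were therefore close to fixed in advance and are no test of the differences. Genes called higher and lower numbered 721 and 518 with no filter on low counts, 90 and 34 when a mean FPKM of 2 was required, 90 and 24 with limma on log2(FPKM + 1), and 133 and 82 at 2-fold. Leaving out 1 library gave 382 to 727 and 243 to 484. With replicate 6 of OIR left out, 296 of the 357 genes were still called. The FPKM-based limma fit with 1 added shrinks low genes by construction and gave 153 constant genes. Without OIR replicate 6, Hmox1, Lyz2, Gfap, Cfi, Cltrn and Rgr fell below 1.5-fold, and without OIR replicate 1, Gfap, Hmox1, Lgals3 and Lyz2.

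List medians (log2) that moved were as follows, and the cause was not tested. Cytokines gave -0.026 with a mean FPKM of at least 2, a reversal, 0.18 with limma on log2(FPKM + 1) and 0.13 to 0.42 with a library left out. Complement gave 0.36 with the lens covariate and 0.22 to 0.44 with a library left out, and NF-kappa B 0.084 at a mean FPKM of 2 or more. Lens genes gave -0.37 and -0.88 with limma (1 and 0.1 added), -0.67 with the lens covariate and -1.75 to -0.70 with a library left out. Pigment epithelium gave -0.15 and -0.24 with limma and -0.37 to -0.23 with a library left out. With a library left out, endothelin genes ranged from -0.028 to 0.29, STAT3 genes from 0.22 to 0.50, sprouting from -0.35 to -0.083, endothelium from -0.29 to -0.073, pericytes from -0.17 to -0.070, hypoxia targets from 0.018 to 0.13, microglia from 0.039 to 0.18, red blood cells from 0.22 to 0.55, matrix from -0.017 to 0.091, glycolysis from -0.077 to 0.026, Müller homeostasis from -0.16 to -0.078 and astrocyte genes from -0.056 to 0.069.

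Within replicates 1 to 3, 2299 genes rose and 2033 fell with the lens covariate. With a replicate block, 3735 genes rose and 3534 fell over both sets. With the block Casq2 no longer passed (log2 -0.39, edgeR adjusted p = 0.051) and Rgr passed (0.21, edgeR adjusted p = 0.032). The labels do not say that a number marks a pair of libraries.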
